A study of Canis lupus familiaris with 124 samples.

Results

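Expression of 7 cell cycle genes was followed through 8 canine cell lines of prostate and bladder carcinoma and 9 tumor tissues. The genes were chosen by name from the 32183 genes listed in the count tables. Of these 7 genes, 4 act in G1 (CCND1, CDKN1A, RB1 and RBL2) and 3 act in mitosis (CCNB1, PLK1 and AURKA). All but CCND1 also stand in gene lists that the study had ranked on these same cell lines by relation to drug response, so they are no independent choice. The count tables list them as ENSCAFG00000010700 (CCND1), ENSCAFG00000029853 (CDKN1A), ENSCAFG00000004436 (RB1), ENSCAFG00000009654 (RBL2), ENSCAFG00000007705 (CCNB1), ENSCAFG00000017658 (PLK1) and ENSCAFG00000029331 (AURKA) of the canine genome CanFam3.1.

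Cells commit to division in G1, when cyclin D1, the product of CCND1, activates CDKs that phosphorylate the pocket proteins encoded by RB1 and RBL2 and thereby release E2F transcription factors. CDKN1A encodes a CDK inhibitor that p53 induces and that holds cells in G1. At the entry into mitosis, cyclin B1 (CCNB1) activates its CDK, and the kinases encoded by PLK1 and AURKA drive centrosome maturation and spindle assembly. Transcripts of the mitotic genes accumulate late in the cycle and are therefore often read as a measure of how many cells of a sample are dividing, while the RBL2 product is best known from resting cells.

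The cell lines of prostate adenocarcinoma (PAC) were Adcarc0846, Adcarc1508 and Adcarc1511.1, those of PAC metastases were Metadcarc1511.2 and Metadcarc1511.3, and those of transitional cell carcinoma (TCC) were TCC0840, TCC1506 and TCC1509. Among the tissues, P2 was a PAC, and Ln4.3 and Ln4.2 were metastases of PAC. P6.1 was a TCC in the prostate with Ln6.2 as its metastasis, and B7, B8, B9 and B10 were TCC of the bladder. They came from 9 dogs aged 6 to 11 years: the dog of Adcarc0846 and P2 was a German Rough-haired Pointer, that of Adcarc1508 a mixed breed dog, that of Adcarc1511.1, both metastasis lines and both of their tissues a Dobermann, that of TCC0840 a Pitbull Terrier, that of TCC1509, P6.1 and Ln6.2 a Bolonka Zwetna and that of TCC1506 and B7 a Labrador Retriever. B8, B9 and B10 came from a Cairn Terrier, a Miniature Pinscher and a German Shepherd and had no cell line here. The lines were grown untreated in the same medium and harvested before confluence, and the libraries of a line came from passages 68 to 107 in 6 lines, 350 and 352 in TCC0840 and 447 and 448 in Adcarc0846. Adcarc0846 and TCC0840 had 2 libraries and the other lines 3, and 3 of the 8 lines came from 1 dog. The libraries of a line were grown in separate flasks, mostly at different passages, so p-values among them measure the spread between cultures of one line. Each tissue had 1 library and no replicate.

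Line libraries held between 15355798 and 19935282 counts and tissues between 11920463 and 18086895, and the lowest count of any of the 7 genes in a tissue or in a cell line, with its libraries summed, was 71. Levels are given as CPM, counts scaled to the size of the library, with TMM factors. Epithelial markers (EPCAM, CLDN7, JUP, CDH3 and LAMA3) summed to between 537 and 3433 CPM in the lines and between 227 and 3088 CPM in the tissues, lowest in TCC1509 and in P2. The 8 fibroblast markers summed to at most 2.12 CPM in 6 lines, to 93.8 CPM in TCC1506 and to 1026 CPM in TCC1509, against 511 CPM (B7) to 107007 CPM (P2) in the tissues. The 10 leukocyte markers summed to between 0.623 and 271 CPM in the lines, where 5 to 8 of them had no count, and to between 189 and 4615 CPM in the tissues. The 6 endothelial markers summed to between 5.11 and 84.3 CPM in the lines and to between 75.0 and 1936 CPM in the tissues. In such bulk samples, fewer tumor cells and less RNA per tumor cell cannot be told apart.

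The G1 regulators CCND1, CDKN1A and RB1 differed between the cell lines. CCND1 ran from 86.4 ± 38.9 CPM (SD, n = 3) in TCC1506 over a median line of 173 CPM to 361 ± 15.2 CPM (n = 3) in TCC1509, and both metastasis lines stood next below TCC1509 with 224 ± 46.4 and 221 ± 71.1 CPM (n = 3 each). CDKN1A was lowest in TCC0840 with 86.6 ± 9.69 CPM (n = 2), had a median of 159 CPM and was likewise highest in TCC1509 with 425 ± 71.8 CPM (n = 3), where the weakest library (345 CPM) exceeded every library of the other lines. RB1 was lowest in Adcarc1508 with 28.2 ± 8.21 CPM (n = 3) and highest in TCC1506 with 77.5 ± 23.7 CPM (n = 3), around a median of 52.9 CPM. TCC1509 thus carried the highest level of both the cyclin and the CDK inhibitor. It also had the highest sum of fibroblast markers among the lines (1026 CPM), whose part in these levels was not tested. TCC0840, Adcarc0846 and TCC1506 were the 3 lowest lines for both CCND1 and CDKN1A. Library names of TCC0840, of Adcarc0846 and of TCC1506 at passages 98 and 106 carry the series of sample numbers of the tissues. All other line libraries carry another series, so line and series cannot be told apart in these differences.

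**Figure D1:**
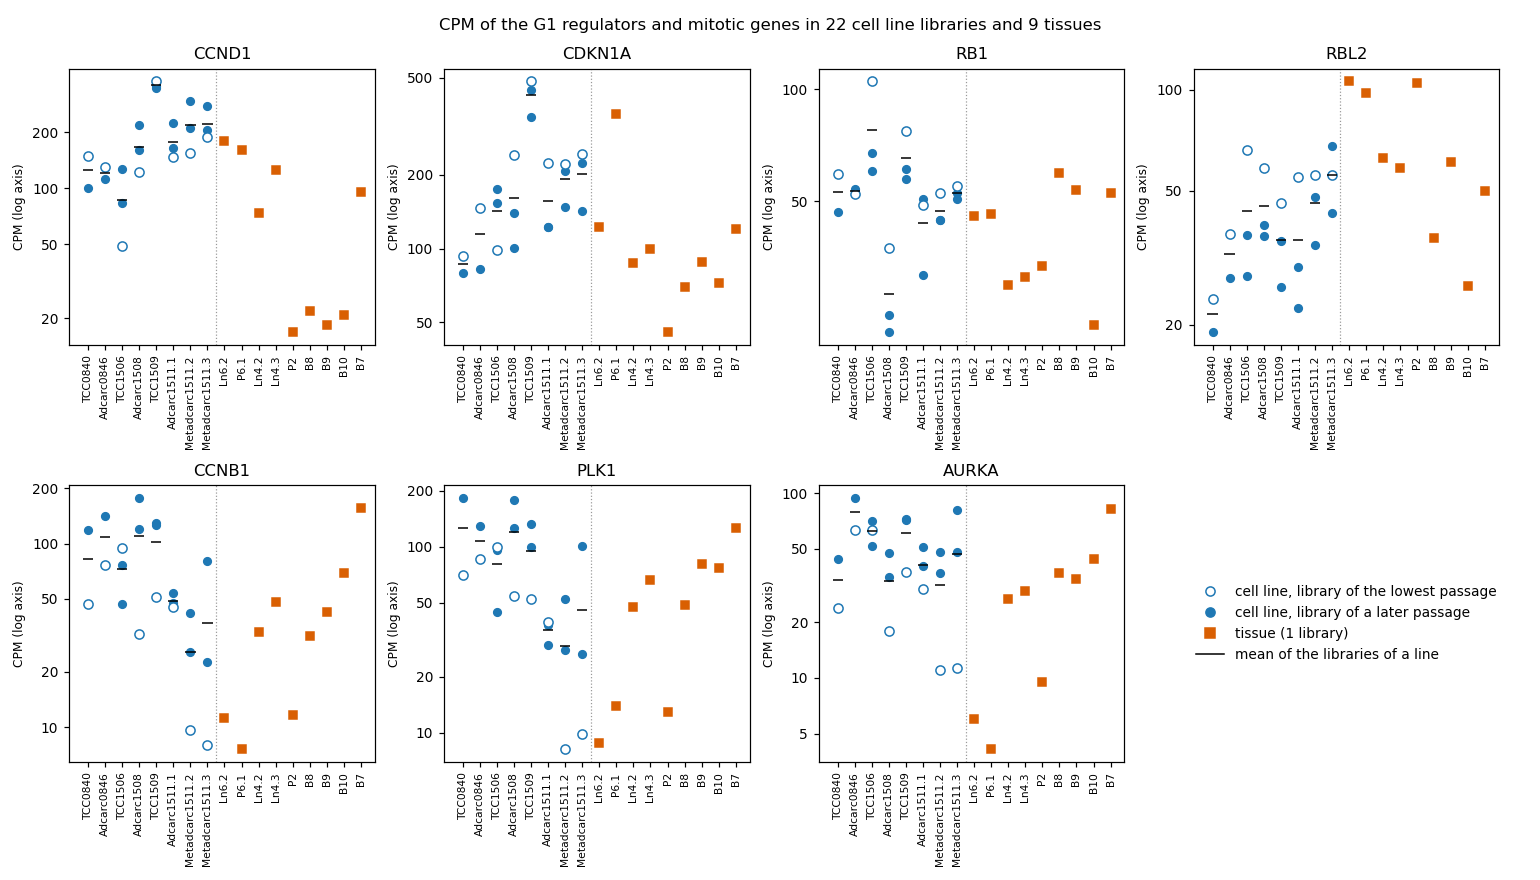
CPM of each of the 7 genes (log axis) in the libraries of the 8 cell lines (circles, open for the lowest passage of a line, line mean as a bar) and in the 9 tissues (squares, 1 library each). CCND1 and CDKN1A peak in TCC1509, RBL2 is highest in the tissues Ln6.2, P2 and P6.1, and the mitotic genes are scattered widely within single lines, with open circles at the bottom in most of them.

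Over the 22 libraries, the edgeR F test called 3 of the 7 genes between the lines (adjusted p of at most 0.01 and a range of at least 2-fold), where 65.3% of the 13916 genes tested were called. The range between the highest and the lowest line was 4.06-fold for CCND1 (edgeR adjusted p = 0.000277), 4.87-fold for CDKN1A (adjusted p = 0.000438) and 2.77-fold for RB1 (adjusted p = 0.00137). RBL2 was between 21.4 ± 3.46 CPM (n = 2) in TCC0840 and 55.6 ± 12.4 CPM (n = 3) in Metadcarc1511.3 and was not called (2.58-fold, edgeR adjusted p = 0.111). Without replicate 2, which leaves only replicate 1 in TCC0840 and Adcarc0846, the calls of CCND1, CDKN1A and RB1 were lost. How far calls fell over all genes is not given here, so this loss is not read as a trait of these genes. Without replicate 3, RB1 was not called (edgeR adjusted p = 0.0164).

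Among the 28 pairs of lines, 6 were called for CCND1, 5 for CDKN1A and 2 for RB1, against 19.7% of all tests of genes and pairs. All 5 called pairs of CDKN1A and 4 of the 6 of CCND1 set TCC1509 above another line, and the other two of CCND1 set the metastasis lines above TCC1506. The largest of these differences was 2.28 on the log2 scale (SE 0.41, edgeR adjusted p = 0.000225) for CDKN1A in TCC1509 over TCC0840. For RB1, Adcarc1508 was below TCC1506 (log2 difference -1.47, SE 0.24, edgeR adjusted p = 9.44e-05) and TCC1509 was above Adcarc1508 (1.18, SE 0.24, adjusted p = 0.000771). Lines next to each other in the order of levels were not called for any of the 7 genes (0 of 49 steps). Differences between neighbours are small by this choice of pairs, and such steps were not counted over all genes, so nothing is drawn from this. The step that came nearest was CDKN1A from TCC1509 to Metadcarc1511.3, with a log2 difference of 1.07 (SE 0.34, edgeR adjusted p = 0.0194).

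Between the line means, CCNB1 and PLK1 ranged about as widely as CCND1 and CDKN1A, and AURKA less widely. None of these 3 mitotic genes was called in this fit, which took no account of the replicate number. With the replicate number as a block, they and RBL2 were called too, and the count over all genes is given at the end. CCNB1 was lowest in Metadcarc1511.2 with 25.7 ± 16.1 CPM and highest in Adcarc1508 with 110 ± 72.9 CPM (n = 3 each), with a median of 77.6 CPM and a range of 4.28-fold (edgeR adjusted p = 0.0853). PLK1 ran from 29.4 ± 22 CPM in Metadcarc1511.2 (n = 3) over a median of 87.5 CPM to 127 ± 79.9 CPM in TCC0840 (n = 2), 4.3-fold (adjusted p = 0.0624). AURKA ran from 32 ± 18.9 CPM in Metadcarc1511.2 (n = 3) over 43.6 CPM to 78.6 ± 21.7 CPM in Adcarc0846 (n = 2), 2.45-fold (adjusted p = 0.289). Metadcarc1511.2 was thus the lowest line for all 3 genes, but the order above it depended on the gene. TCC0840 and Adcarc1508, with 127 and 120 CPM of PLK1, had only 34.0 and 33.5 CPM of AURKA, whereas Adcarc0846 had 107 and 78.6 CPM. Over the 8 line means, log2 CPM of CCNB1 and PLK1 had a Pearson r of 0.93, while AURKA had r = 0.44 with CCNB1 and r = 0.29 with PLK1, given as a description over lines of 6 dogs.

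For the mitotic genes, libraries of one line lay far apart. In Metadcarc1511.3, the 3 libraries (passages 79, 86 and 87) held 7.99, 22.8 and 80.1 CPM of CCNB1, 9.81, 26.6 and 101 CPM of PLK1, and 11.3, 47.9 and 80.7 CPM of AURKA. In Metadcarc1511.2 (passages 68, 75 and 79), CCNB1 was at 9.62, 25.6 and 41.7 CPM. In Adcarc1508 (passages 97, 105 and 106), CCNB1 was at 32.2, 120 and 177 CPM. By contrast, Adcarc1511.1 held between 45.4 and 54.0 CPM of CCNB1 in all 3 libraries. The highest library of a line exceeded its lowest by up to 10.3-fold for PLK1, 10.0-fold for CCNB1 and 7.14-fold for AURKA, and by at most 2.58-fold for CCND1, 2.40-fold for CDKN1A, 2.44-fold for RBL2 and 1.73-fold for RB1.

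On the log2 scale, the SD between libraries of a line, pooled over the 8 lines, was 0.99 for CCNB1, 0.98 for PLK1 and 0.80 for AURKA, against a median of 0.32 over the 13916 genes tested. These 3 values exceeded those of 98.9%, 98.9% and 97.3% of the genes. RB1 had an SD of 0.28, CCND1 of 0.40, CDKN1A of 0.44 and RBL2 of 0.45, which exceeded between 38.7% and 79.5% of the genes. The spread within lines was 1.15, 1.06 and 1.5 times the SD of the line means for CCNB1, PLK1 and AURKA, 1.11 times for RBL2, and 0.61 to 0.67 times for the other G1 regulators (median gene, 0.59). The partner genes CCNA2 (cyclin A2), TPX2 (an activator of the AURKA kinase), NEK2 (a centrosome kinase) and HMMR (a spindle protein) had SDs within lines of 1.16, 0.82, 0.91 and 0.73. When each gene's deviation from its line mean was compared over the 22 libraries, r was between 0.93 and 0.97 for each mitotic gene with the mean of the other two, 0.91 for CCNA2, -0.69 for CDKN1A and 0.19 for CCND1. These values describe libraries that share lines and sequencing and carry no test.

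**Figure D2:**
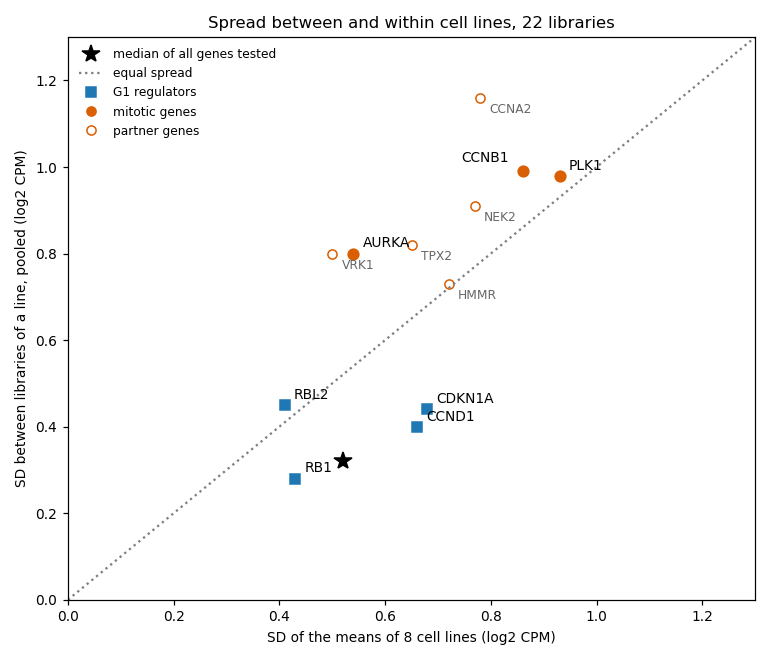
SD between the libraries of a line, pooled over 8 lines (y axis, log2 CPM), against the SD of the 8 line means (x axis, log2 CPM). CCNB1, PLK1, AURKA and the partner genes (open circles) lie on or above the dotted line of equal spread, as does RBL2, whereas CCND1, CDKN1A and RB1 lie below it with the median gene (star, 0.52 and 0.32).

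Within most lines, the library with the lowest mitotic level was that of the lowest passage, which is replicate 1 of each line. AURKA and CCNB1 were lower at the lowest passage than at every later passage in 7 of 8 lines, a count reached by 6.23% of the genes tested, and PLK1 in 6 of 8, which 14% reached. CDKN1A and RBL2 were higher at the lowest passage than at every later one in 7 of 8 lines, which 4.84% of the genes reached, and RB1 in 6 of 8, which 13.2% reached. CCND1 was lower in 5 lines, which 25.1% of the genes reached, and higher in 3. The exception for CCNB1, AURKA and CDKN1A was TCC1506, whose library at passage 98 had 95.0 CPM of CCNB1 against 46.8 and 76.6 CPM later, and 98.6 CPM of CDKN1A against 154 and 176 CPM later. The library names of TCC1506 carry the sample number series of the tissues at passages 98 and 106 and another series at passage 107. For RBL2, the exception was Metadcarc1511.3, with 55.9 CPM at passage 79 against 43.0 and 67.8 CPM later.

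The difference was large in the metastasis lines and in Adcarc1508. AURKA was at 11.3 CPM at passage 79 of Metadcarc1511.3 and at 64.3 CPM on average later, 5.69-fold more, and at 11.1 and 42.4 CPM in Metadcarc1511.2 (3.81-fold). In the remaining lines other than TCC1506 it was 1.49-fold (Adcarc0846) to 2.31-fold (Adcarc1508) higher later, and in TCC1506 it was level (63.3 and 61.3 CPM). CDKN1A was at 242 CPM at passage 97 of Adcarc1508 and at 121 CPM on average later, and at 223 and 123 CPM in Adcarc1511.1. In both lines with passages only 1 or 2 apart, the direction was the same: CCNB1 was at 76.2 CPM at passage 447 of Adcarc0846 and at 141 CPM at passage 448, and at 46.8 and 118 CPM at passages 350 and 352 of TCC0840.

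**Figure D3:**
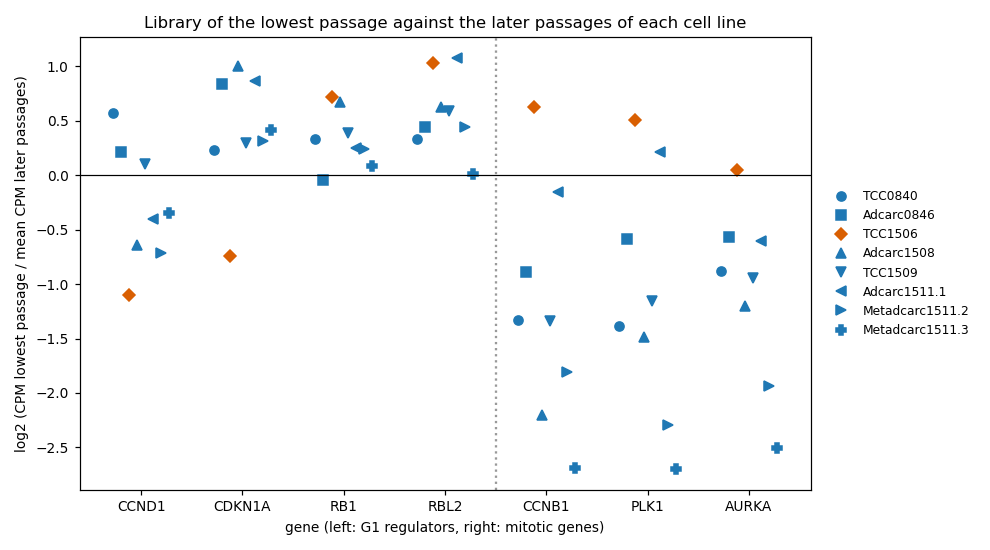
Log2 ratio of the CPM at the lowest passage to the mean CPM of the later passages (y axis) for each gene (x axis) and each of the 8 cell lines (symbols, TCC1506 in orange). Most lines lie above 0 for CDKN1A, RB1 and RBL2 and below 0 for the mitotic genes, TCC1506 lies above 0 for all 3 mitotic genes, and Adcarc1511.1 lies above 0 for PLK1.

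This contrast was chosen after the values of the libraries had been seen. In an edgeR fit over the 22 libraries with the cell line as a covariate, AURKA was lower at the lowest passage, with a log2 difference of -1.01 (SE 0.22, edgeR adjusted p = 0.00872) and was called, as were 0.762% of 13916 genes (68 higher and 38 lower). The log2 difference was -1.10 (SE 0.32, adjusted p = 0.0289) for CCNB1, -0.98 (SE 0.34, adjusted p = 0.0603) for PLK1 and -0.31 (SE 0.16, adjusted p = 0.187) for CCND1. It was 0.60 (SE 0.13, adjusted p = 0.00891) for RBL2, 0.36 (SE 0.10, adjusted p = 0.0254) for RB1 and 0.44 (SE 0.16, adjusted p = 0.0679) for CDKN1A. With an adjusted p of at most 0.05 and no fold limit, AURKA, CCNB1, RB1 and RBL2 passed, 4 of 7, against 13.7% of all genes. The call of AURKA was lost without Adcarc1508 (edgeR adjusted p = 0.042), TCC1509 (0.0233), Adcarc1511.1 (0.0141), Metadcarc1511.2 (0.0397) or Metadcarc1511.3 (0.0238). It was also lost without replicate 2 (0.0425) or replicate 3 (0.047), in fits that left out TCC0840 and Adcarc0846 as well. Without both metastasis lines, the log2 difference of AURKA was -0.65 (adjusted p = 0.0692). Without TCC1506, CCNB1 was called as well (-1.43, adjusted p = 0.00765). Over all genes, 1 gene was called without Adcarc1508 or either metastasis line, and 0 without replicate 2, TCC0840 and Adcarc0846. Passage, date of culture and replicate number cannot be told apart within a line, and in TCC1506 the series of sample numbers changes as well. Replicate numbers follow the sample labels, but library names of TCC0840 and Adcarc0846 carry the numbers 2 and 3, and those of the other lines start at 1. The 5 epithelial markers gave no call in this contrast (median log2 difference 0.00).

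The mitotic genes covered a wider range of levels in the tissues, with 1 library each, than in the line means. Single libraries of the lines ran from 7.99 to 177 CPM for CCNB1, from 8.17 to 183 CPM for PLK1 and from 11.1 to 94.0 CPM for AURKA. CCNB1 ranged from 7.61 CPM in P6.1 over a median of 32.9 CPM to 157 CPM in B7, 20.6-fold, PLK1 from 8.77 CPM in Ln6.2 over 48.6 CPM to 127 CPM in B7, 14.4-fold, and AURKA from 4.12 CPM in P6.1 over 29.4 CPM to 82.3 CPM in B7. P6.1, Ln6.2 and P2 were the 3 lowest tissues for each mitotic gene, with at most 14 CPM, and the next tissue above them held at least 26.7 CPM. Over the 9 tissues, the 3 mitotic genes had pairwise r of 0.94 to 0.96 in log2 CPM, and RBL2 had r of -0.74, -0.78 and -0.80 with CCNB1, PLK1 and AURKA. RBL2 was highest in the same 3 tissues, with 106 CPM in Ln6.2, 105 CPM in P2 and 97.4 CPM in P6.1, and lowest in B10 with 26.1 CPM. Fibroblast, leukocyte and endothelial markers together summed to 113558 CPM in P2, 60753 CPM in Ln6.2 and 7401 CPM in P6.1, but also to 66526 CPM in Ln4.2, where CCNB1 was at 32.9 CPM, and to 774 CPM in B7. Their part in these levels was not tested.

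CCND1 fell into a low and a higher range in the tissues, which did not follow the tumor type. It was at 21.8, 18.4 and 20.9 CPM in B8, B9 and B10 and at 16.8 CPM in P2, but at 96.1 CPM in B7, 73.3 CPM in Ln4.2, 125 CPM in Ln4.3, 161 CPM in P6.1 and 181 CPM in Ln6.2. CDKN1A was between 45.5 CPM (P2) and 123 CPM (Ln6.2) in 8 tissues and at 356 CPM in P6.1. RB1 was between 23.3 CPM (B10) and 59.4 CPM (B8). The dog of P6.1 and Ln6.2 thus gave the highest tissue levels of CCND1 and CDKN1A, and its line TCC1509 gave the highest line levels. GDF15, another p53 target, was also highest in TCC1509 and in P6.1, but its order otherwise differed. It was at 255 ± 27.2 CPM in TCC1509 and 23.7 ± 6.12 CPM in Metadcarc1511.2 (SD, n = 3 each). In any library of the other 6 lines it was at no more than 0.337 CPM, also in Metadcarc1511.3, which stood next below TCC1509 for CDKN1A. In the tissues it was at 29.3 CPM in P6.1, 15.6 CPM in B7 and 12.3 CPM in Ln6.2. The other p53 targets listed, PERP and TRIAP1, were not followed by line.

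Cell lines were then compared with tissues, the question being whether cell cycle genes keep their level in culture. Of the 7 genes, 0 were called between 8 lines and 9 tissues by edgeR, where 11.0% of 12396 genes were called (414 higher and 950 lower in the lines). RBL2 had the smallest p, with a median of 39.7 CPM in the lines and 61 CPM in the tissues, and 6 of 9 tissues above the highest line (log2 difference -0.83, SE 0.27, edgeR adjusted p = 0.0314). CCND1 had a log2 difference of 1.16 (SE 0.50, adjusted p = 0.0889), with 5 of 9 tissues below the lowest line and 3 of 8 lines above the highest tissue. The mitotic genes had log2 differences of 0.52 to 0.62 with SEs of 0.45 to 0.50, CDKN1A of 0.59 (SE 0.37) and RB1 of 0.27 (SE 0.21). Each of the 3 mitotic genes was lower in P6.1, Ln6.2 and P2 than in any line mean, and higher in B7 than in the highest line mean. How many of all genes had as many samples beyond the range of the other material was not counted for any of these.

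RBL2 was called when replicate 1 of each line was left out (log2 difference -1.06, edgeR adjusted p = 0.00994). The share of all genes called in that setting is not given here, so this call is not read as a trait of RBL2. Against B7, B9 and B10 alone, the 3 tissues with the least stromal markers, the log2 difference was 2.03 (edgeR adjusted p = 0.0645) for CCND1 and between -0.32 and -0.17 for the mitotic genes. In the lines whose library names carry the same series of sample numbers as the tissues, CDKN1A had a log2 difference of -0.17 (adjusted p = 0.867).

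In 5 pairs of 4 dogs, the lines could be set against the tissue from which they were derived. How many of all genes had the same direction in 5 of 5 pairs was not counted. RB1 was higher in the line in 5 of 5 pairs, by 1.41-fold (TCC1509 over P6.1) to 1.68-fold (Metadcarc1511.3 over Ln4.3). Every library of the 5 lines exceeded the tissue of its line for RB1, which was not counted over all genes either. CDKN1A was also higher in 5 of 5 pairs, by 1.19-fold in both TCC pairs, where 2 of 3 libraries exceeded the tissue. It was 2.20-fold and 2.04-fold higher in the metastasis pairs and 2.52-fold in Adcarc0846 over P2. RBL2 was lower in 5 of 5 lines, at 32.4 against 105 CPM in Adcarc0846 and P2 and at 35.8 against 97.4 CPM in TCC1509 and P6.1, but at 55.6 against 58.6 CPM in Metadcarc1511.3 and Ln4.3. CCND1 was higher in 4 of 5, the exception being TCC1506 with 86.4 against 96.1 CPM in B7. The mitotic genes had no common direction: CCNB1 was at 109 against 11.7 CPM in Adcarc0846 and P2 and at 103 against 7.61 CPM in TCC1509 and P6.1, but at 72.8 against 157 CPM in TCC1506 and B7.

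**Figure D4:**
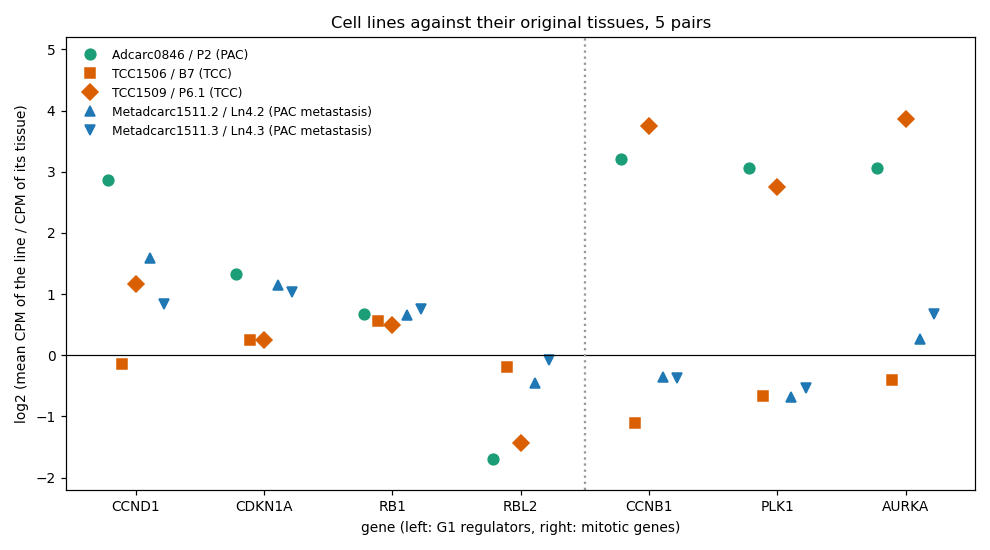
Log2 ratio of the mean CPM of a line to the CPM of its tissue (y axis) for each gene (x axis) in 5 pairs (green PAC, orange TCC, blue PAC metastasis). RB1 and CDKN1A lie above 0 and RBL2 below 0 in all 5 pairs, whereas for each mitotic gene the pairs of Adcarc0846 and TCC1509 lie at 2.75 or higher and that of TCC1506 below 0.

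In the fit over all pairs, 0 of 7 genes were called by edgeR, against 1.33% of 12851 genes. The log2 differences were 0.56 for RB1 (SE 0.17, edgeR adjusted p = 0.105), 0.74 for CDKN1A (SE 0.24, adjusted p = 0.118), 1.19 for CCND1 (SE 0.43, adjusted p = 0.138) and -0.83 for RBL2 (SE 0.33, adjusted p = 0.163). For CCNB1, PLK1 and AURKA they were 0.82, 0.64 and 1.35, with SEs of 0.94, 0.78 and 0.75. In the PAC metastasis pairs, which share a dog, 0 of 7 were called against 11.2% of 15123 genes. With an adjusted p of at most 0.05 and no fold limit, CCND1 (log2 difference 1.21, SE 0.26), CDKN1A (1.06, SE 0.17) and RB1 (0.68, SE 0.16) were higher and PLK1 was lower (-0.62, SE 0.16), 4 of 7, against 37.5% of all genes. DESeq2 called CCND1 (log2 difference 1.17) and CDKN1A (1.03), along with 4841 of all 15123 genes.

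The PAC metastasis values of the mitotic genes turned on the library used. PLK1 was at 47.2 CPM in Ln4.2 and at 8.17, 27.9 and 52.1 CPM in the libraries of Metadcarc1511.2, and at 66.2 CPM in Ln4.3 and at 9.81, 26.6 and 101 CPM in those of Metadcarc1511.3. In both lines the lowest passage was well below the tissue and the highest passage above it. The log2 difference of PLK1 was -1.62 without replicate 3 (edgeR adjusted p = 0.0107) and -0.20 without replicate 1 (adjusted p = 0.401), and that of AURKA was -0.07 and 0.86 (adjusted p = 0.798 and 0.0406).

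In the TCC pairs, the call rule was passed by 0 of 7 genes and by 0% of 13599 genes in edgeR, with 845 genes at an unadjusted p of at most 0.05 and 489 called by DESeq2. The log2 differences of the mitotic genes were 1.29, 1.03 and 1.70 with SEs of 1.73, 1.12 and 1.48, since the pair of TCC1509 and that of TCC1506 pointed in opposite directions. The difference of the line effect between TCC and PAC metastasis, tested as an interaction, was also called for 0 of 7 genes and for 0% of 15429 genes (1503 at an unadjusted p of at most 0.05). Its smallest adjusted p among the 7 genes was 0.556, for CDKN1A (-0.79, SE 0.34).

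**Figure D5:**
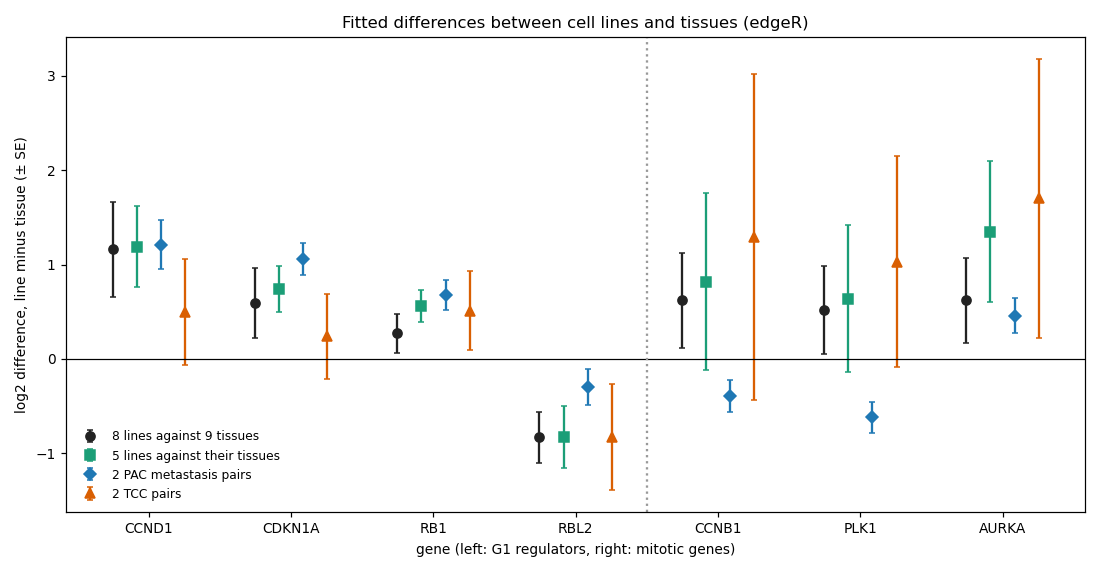
Fitted log2 difference between cell lines and tissues (y axis, ± SE) for each gene (x axis) in 4 edgeR comparisons. CCND1, CDKN1A and RB1 lie above 0 and RBL2 below 0 in all 4, and SEs of the mitotic genes reach from 0.16 in the PAC metastasis pairs to 1.73 in the TCC pairs.

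The tumor types were compared as well. Between 3 TCC lines and 5 lines of PAC and its metastases, 0 of 7 genes and 0% of 12557 genes were called by edgeR (1079 at an unadjusted p of at most 0.05, 105 called by DESeq2), and between 6 TCC tissues and 3 tissues of PAC and its metastases 0 of 7 and 0% of 13581 genes (2252 and 264). RB1 had a log2 difference of 0.54 (SE 0.26, edgeR adjusted p = 0.598) in the lines and 0.70 (SE 0.30, adjusted p = 0.288) in the tissues. Differences in the lines were between -0.33 and 0.62 and those in the tissues between -0.13 and 0.96, with SEs of up to 0.49 and 0.92. In the lines, leaving out TCC1509 moved CCND1 from 0.08 to -0.80 and CDKN1A from 0.41 to -0.54 (adjusted p = 0.352 and 0.521).

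Genes of the same pathways, most of them from lists ranked on these lines and so not independent, were counted in these comparisons. Of 10 partner genes in mitosis and S/G2, 1 was higher in lines than in tissues and 0 were lower (median log2 difference 0.75, all genes -0.02), where 11.0% of all genes were called. This was VRK1, a kinase of mitotic chromatin named here after its values were seen, with a median of 56.6 CPM in the lines and 18.1 CPM in the tissues (log2 difference 1.43, SE 0.33, edgeR adjusted p = 0.00444). TPX2 had a log2 difference of 1.27 (SE 0.36, adjusted p = 0.0161), NEK2 of 0.94 (SE 0.41), CCNA2 of 0.80 (SE 0.43) and HMMR of 0.68 (SE 0.36). Of 23 genes of the centrosome and the gamma-tubulin complex, 3 were higher and 0 lower (median 0.43, again beside 11.0% of all genes called), of 8 partners of RB1 and G1/S genes 0 were called (median 0.23), and of 3 p53 targets 2 could be tested and 0 were called (median 0.69). GMNN, which keeps DNA from replicating again within a cycle, was not called (1.09, SE 0.32, adjusted p = 0.0179). Of the marker genes tested, 6 of 8 fibroblast, 7 of 9 leukocyte and 4 of 5 endothelial markers were lower in the lines and 0 of 4 epithelial markers were called.

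In the contrast of the lowest with the later passages, VRK1 was lower at the lowest passage in 8 of 8 lines, which 1.47% of all genes were, and was called (log2 difference -1.07, SE 0.20, edgeR adjusted p = 0.00464). No other gene of the 4 pathway lists was called. CCNA2 (-1.26, SE 0.33), NEK2 (-1.05, SE 0.26) and HMMR (-0.74, SE 0.24) were lower in 7 of 8 lines each, except TCC1506, with edgeR adjusted p-values of 0.0193, 0.0157 and 0.0517. TPX2 (-0.73, SE 0.28, adjusted p = 0.0841) and GMNN (-0.58, SE 0.17, adjusted p = 0.0308) were lower in 6 of 8. The median log2 difference was -0.73 for the 10 partners in mitosis and S/G2, -0.21 for the centrosome genes, -0.11 for the partners of RB1 and 0.11 for the p53 targets, against 0.02 over all genes.

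Among the genes with a symbol, those most like the mean of the 3 mitotic genes over the 8 lines were CTXN1 (r = 0.98, at 0.329 to 3.83 CPM), CCNA2 (0.96), CRTC2 (0.95), SURF1 (0.95) and NADSYN1 (0.92), of 774 genes compared. Over the 9 tissues they were TUBB4B, a beta-tubulin (0.96), NOP56 (0.93), NEK2 (0.93), KIF24, a kinesin (0.93), and SYMPK (0.93), of 885 genes. Only CCNA2 and NEK2 are partner genes listed above. For CCND1 over the lines they were NKTR, RCOR3, SDCCAG8, HAUS7 and VCP (r of 0.87 to 0.88), and for CDKN1A CEP128 (0.99), SMAD5 (0.97), RCOR3 (0.95), LAMB1 (0.95) and RPGRIP1L (0.94), of 776 genes. These r values are over 8 or 9 samples and are a description. CCND1 and CDKN1A had r = 0.84 with each other over the lines and 0.74 over the tissues.

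Levels of different genes were compared per effective length, as counts divided by effective length and scaled to the same sum in each library. In the median line, CCND1 was the most abundant with 214, followed by CCNB1 with 98.8, PLK1 with 80.0, AURKA with 57.0, CDKN1A with 55.6, RB1 with 29.2 and RBL2 with 18.9. In the median tissue, the level per length was 94.8 for CCND1, 43.7 for both CCNB1 and PLK1, 37.0 for AURKA, 31.2 for CDKN1A, 30.2 for RBL2 and 24.1 for RB1. RB1 stood above RBL2 in the median line and below it in the median tissue.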

How the data were processed

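RNA was sequenced in 31 libraries on 4 lanes each. According to the methods of the study, the authors used Trimmomatic for trimming, STAR for alignment (CanFam3.1) and RSEM for quantification of Ensembl genes. The deposited values are expected counts, 1 table per lane, without normalization (17.4% of nonzero values had decimals). Each lane held between 2928121 and 5039762 expected counts. The deposited effective lengths (in bases, another unit of RSEM) served only for levels per length. Samples were grouped by their labels; for lanes of one Adcarc0846 library whose line name, age and dog number count upwards, the title was used. Expected counts were summed over lanes and, for all comparisons except those between lines or passages, over the libraries of a line, and rounded.

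Python 3.11.15 and edgeR 4.0.16 in R 4.3.3 were used: TMM, quasi-likelihood F tests, Benjamini-Hochberg adjustment over all genes tested, at least 10 counts in all samples of one side. A gene was called where its adjusted p did not exceed 0.01 and it differed by 2-fold or more. Pairs were a covariate. SEs were derived from the log2 difference and F. Correlations used log2(CPM + 0.5). Scripts were tested on simulated data. Alternatives were DESeq2 1.42.0, RLE factors, library totals, no filter, another threshold, and samples or replicates left out. The genes named are the 7 members, 6 partners and the 5 most correlated symbols. Members, lists and tests were chosen with earlier results of these data known. Symbols came from the study's tables (1089 genes). Genomic positions, sequences, Adcarc1258, P1 and P3 were not analysed here.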

Additional observations from a re-analysis of the deposited data

Results flagged for a closer look

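Over 28 groups of samples tested for a sample that stands far from the others, 4 such cases were found on the CPM scale. The critical values hold for normally distributed values, which CPM need not be. The groups also overlap, and P6.1 was counted for CDKN1A both in the 9 tissues and in the 6 TCC tissues. The number of cases is therefore not set against a rate by chance. CDKN1A was at 425 CPM in TCC1509, and the next of the 8 cell lines, Metadcarc1511.3, was at 203 CPM, so that this gap made up 0.657 of the whole range (critical value 0.526). In the tissues, CDKN1A was at 356 CPM in P6.1 and at 123 CPM in Ln6.2, the next one, a gap of 0.751 of the range among the 9 tissues (critical value 0.493) and of 0.814 among the 6 TCC tissues (critical value 0.625). TCC1509, P6.1 and Ln6.2 came from the same dog. CCNB1 was at 157 CPM in B7 and at 69.3 CPM in B10, the next of the 9 tissues, a gap of 0.587 of the range (critical value 0.493). B7 also had the lowest summed fibroblast, leukocyte and endothelial markers of the tissues (774 CPM), whose part in this level was not tested.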

How the results depend on the processing

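Of 651 values of the 7 genes recomputed under alternatives, 606 kept their direction and their side of the threshold, 12 lost a call, 21 gained one and 12 turned their direction, and for none of these was the cause tested. Between lines and tissues, 1 gene passed with an adjusted p of at most 0.05 and no fold limit, and 0 to 1 genes were called when a replicate was left out. For these settings the share of all genes is not given either. CDKN1A turned to -0.17 (log2 difference) in the lines of the tissues' sample number series, and CCNB1, PLK1 and AURKA to -0.32, -0.27 and -0.17 against the 3 tissues with the lowest stromal markers. In the PAC metastasis pairs, 4 genes passed at the looser threshold and 2 in DESeq2, and with a replicate left out CCNB1 was between -1.28 and 0.02 and AURKA between -0.07 and 0.86. Between TCC and PAC lines, CCND1 turned to -0.08 without replicate 1 and to -0.03 without Adcarc0846 and was between -0.80 (without TCC1509) and 0.42 with a line left out, and CDKN1A between -0.54 (without TCC1509) and 0.77. Between TCC and PAC tissues, CCND1 was between -0.15 (without P2) and 0.99 with a PAC tissue left out, and RBL2 turned to 0.15 without P2. Between the cell lines, 5 of the 7 genes were called without a count filter, where 65.3% of all genes were called with the filter. The number called moved when a replicate was left out, and the share of all genes is not given for these settings. For the lowest against the later passages, 4 genes passed at the looser threshold, 2 were called in DESeq2 and 2 without a count filter. With a line or replicate left out 0 to 2 were called, and 0 without both metastasis lines. The fits without a replicate left out TCC0840 and Adcarc0846 as well. The number of all genes called was between 0 and 388.

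Replicate numbers were not used as pairs in the main fit, and the values on such a pairing were mixed. Between libraries with the same number, correlations of deviations had medians of 0.17, 0.09 and 0.19 for replicates 1, 2 and 3. They went down to -0.11, -0.25 and -0.09, and 17 of 28, 14 of 28 and 10 of 15 exceeded 0.1. Of 22 libraries, 17 correlated best with their own number. With the replicate number as a block, 7 of the 7 genes and 9721 of all genes were called between the cell lines. Tissues had no replicates, and leaving out a replicate of a line with 2 libraries leaves 1, which is assumed to vary like the others.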
